A study of Rattus norvegicus with 16 samples.

Results

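Lysosomal gene expression was followed in cells adhering to titanium implants in rat bone. The genes comprised 45 named members: cathepsins and other lysosomal hydrolases, lysosomal membrane proteins, subunits of the lysosomal proton pump and the transcription factor Tfeb. They were picked by name, and genes particular to osteoclasts were left out. Of the 45, 41 were measured by an array row naming a single gene, among 17245 genes measured in all. Ctsz and Gaa had no such row, and Ctsa and Idua were only on rows shared with another gene.

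The implants came from 8 male Sprague Dawley rats with no genetic change named in the labels, whose age is not given. AT-I implants carried nanoscale surface features and AT-II implants were microrough without them. In each rat 1 tibia received 2 implants of AT-I and the opposite tibia 2 of AT-II. Implants were taken out after 2 or 4 days, from 4 rats each. All rats had ketamine and xylazine with lidocaine and epinephrine at surgery and ketoprofen afterwards, and no group was free of an implant. Implants were rinsed in cold saline, and total RNA of whatever cells remained attached was hybridised to Affymetrix Rat Gene 1.1 ST arrays, which read RNA with many probes per gene. The 16 arrays formed 4 groups of 4. The labels call the cells tibial and do not tie replicate numbers to rats, so each sample is taken as 1 tibia and any pairing of the surfaces within a rat is not used.

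Lysosomes are acidic compartments in which hydrolases break down proteins, sugar chains and lipids taken up from outside the cell or delivered by autophagy. The vacuolar proton pump (V-ATPase) acidifies them. Its V1 sector splits ATP in the cytosol and its V0 sector carries protons across the membrane. Macrophages, which clear debris at wounds and implants, are rich in lysosomes, and osteoclasts turn the same machinery on bone. TFEB, the product of Tfeb, is known for switching on many lysosomal genes through a CACGTG-centred promoter element.

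That element could be read in the promoters of the members. RefSeq promoter sequences (GRCr8 build, 250 bases before to 50 after each gene's start) were matched for 37 of the 45 members. TCACGTG on either strand, which contains CACGTG and overlaps TCACGTGA, was in 7 of these 37 windows (18.9%) and in 3.20% of 33469 windows of the same length. CACGTG was in the same number of members' windows (18.9%) and in 6.42% of all windows, and TCACGTGA in 4 (10.8%) and in 0.777%. The 7 members were Ctsd, Glb1, Lamp1, Mcoln1, Atp6v0d1, Gaa and Idua. The windows of the 5 that were measured are shown upstream of the start, 5′ to 3′ on the gene's strand and with each match in capitals, since they let Tfeb be set beside genes of its known element. A match is a run of letters and not a measured binding site.
Ctsd, chr1:206968822-206969003, minus strand: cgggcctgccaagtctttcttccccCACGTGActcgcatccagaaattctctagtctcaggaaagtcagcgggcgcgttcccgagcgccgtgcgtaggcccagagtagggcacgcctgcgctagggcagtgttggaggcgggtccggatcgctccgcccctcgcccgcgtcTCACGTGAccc
Glb1, chr8:122963592-122963648, plus strand: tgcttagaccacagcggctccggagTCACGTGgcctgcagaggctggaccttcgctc
Lamp1, chr16:83075070-83075272, minus strand: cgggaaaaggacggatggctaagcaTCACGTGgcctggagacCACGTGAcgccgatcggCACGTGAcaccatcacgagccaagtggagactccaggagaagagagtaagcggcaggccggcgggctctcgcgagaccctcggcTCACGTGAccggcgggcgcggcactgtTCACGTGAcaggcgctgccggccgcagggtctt
Mcoln1, chr12:6358210-6358257, plus strand: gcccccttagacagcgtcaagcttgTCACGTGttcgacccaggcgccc
Atp6v0d1, chr19:50357269-50357326, minus strand: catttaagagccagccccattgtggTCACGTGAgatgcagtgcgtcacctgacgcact
Lamp1 held 5 separate matches and Ctsd 2 in the stretches shown, and the window of Smpd1, the member with the smallest p over time, held none.

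The arrays were checked before any comparison. AT-II day 2 replicates 2 and 3 agreed more closely than any of the other array pairs (120 pairs in all). Over the rows used for the check, the SD of their difference was 0.109 against 0.294 for the next closest pair. They were averaged and counted as 1 sample, leaving AT-II day 2 with n = 3 and 15 samples in each comparison. Macrophage markers (13 of 14 measured) averaged 8.54 to 9.52 per sample on AT-I day 2, 9.14 to 9.60 on AT-II day 2, 9.06 to 9.36 on AT-I day 4 and 9.21 to 9.51 on AT-II day 4, on a log2 scale. AT-I day 2 replicate 1 was the sample at 8.54, with the other 3 of its group at 9.39 to 9.52. Osteoblast markers (11 of 12 measured) rose strongly over time, 11 of 11 on AT-I and 10 of 11 on AT-II, with a median change of 2.84 and 2.57 (log2). The interquartile range of the arrays was 2.67 ± 0.222 (SD, n = 4) on AT-I day 2, 3.22 ± 0.182 (n = 3) on AT-II day 2, 3.03 ± 0.349 (n = 4) on AT-I day 4 and 3.26 ± 0.164 (n = 4) on AT-II day 4. With 3 or 4 samples a group every value is of limited precision, and p-values measure only the spread between these samples.

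From day 2 to day 4 on AT-I, 2 of the 41 members passed the test, as did 11.5% of all genes. Of the 41 members, 2 rose, the acid sphingomyelinase gene Smpd1 and the beta-galactosidase gene Glb1, and 0 fell (limma, Benjamini-Hochberg adjusted p under 0.05 over all 17245 genes). Over all genes, 8.84% rose and 2.66% fell. With each array centred on its median, and also with quantile normalization repeated, 1 member rose (Smpd1) and 2 fell (Atp6v0b and Tfeb). With each array centred on its median, 991 genes rose and 1504 fell, against 1525 and 458 without centring, and with quantile normalization repeated 1216 rose and 638 fell. The median change was 0.07 (log2) over the members and -0.05 over all genes. Changes were above 0 in 29 of 41 members and below 0 in 12, against 44.8% and 55.2% of all genes. Among the 10459 genes with a mean of at least 6, which hold all 41 members, 37.0% were below 0 and the median was 0.09, above that of the members. Centring moved the median of all genes to -0.21 and that of the members to -0.09, with 28 of 41 then below 0. With array spread as a covariate the members' median was 0.03 and that of all genes -0.02. Without AT-I day 2 replicate 1 the members' median was -0.01, 0 passed and 20 were above 0. Leaving out replicate 2 or 3 of AT-I day 2 gave medians of 0.10 and 0.17, and leaving out replicate 1, 2 or 3 of AT-I day 4 gave 0.14, 0.03 and 0.11. In bulk RNA, fewer cells of a type and less RNA per cell cannot be told apart.

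On AT-II over the same days, 0 of 41 members passed, against 3.33% of all genes, with 3.13% rising and 0.203% falling. The members' median was 0.005 (log2) against -0.05 over all genes, and 21 of 41 were above 0 and 20 below, against 40.3% and 59.7% of all genes. With each array centred, 366 genes rose and 141 fell in place of 540 and 35, and the members' median was -0.10 with 34 below 0. Array weights gave the same count below 0. Single samples set the sign of this median. It was -0.14 with 35 below 0 without AT-II day 2 replicate 1 and -0.07 with 30 below 0 without AT-II day 4 replicate 2, but 0.04, 0.06 and 0.05 without AT-II day 2 replicate 2, AT-II day 2 replicate 4 and AT-II day 4 replicate 1. Leaving out replicate 3 or 4 of AT-II day 4 gave 0.016 and 0.0017. At an unadjusted p under 0.05, 13.0% of all genes passed on AT-II and 27.9% on AT-I.

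**Figure D1:**
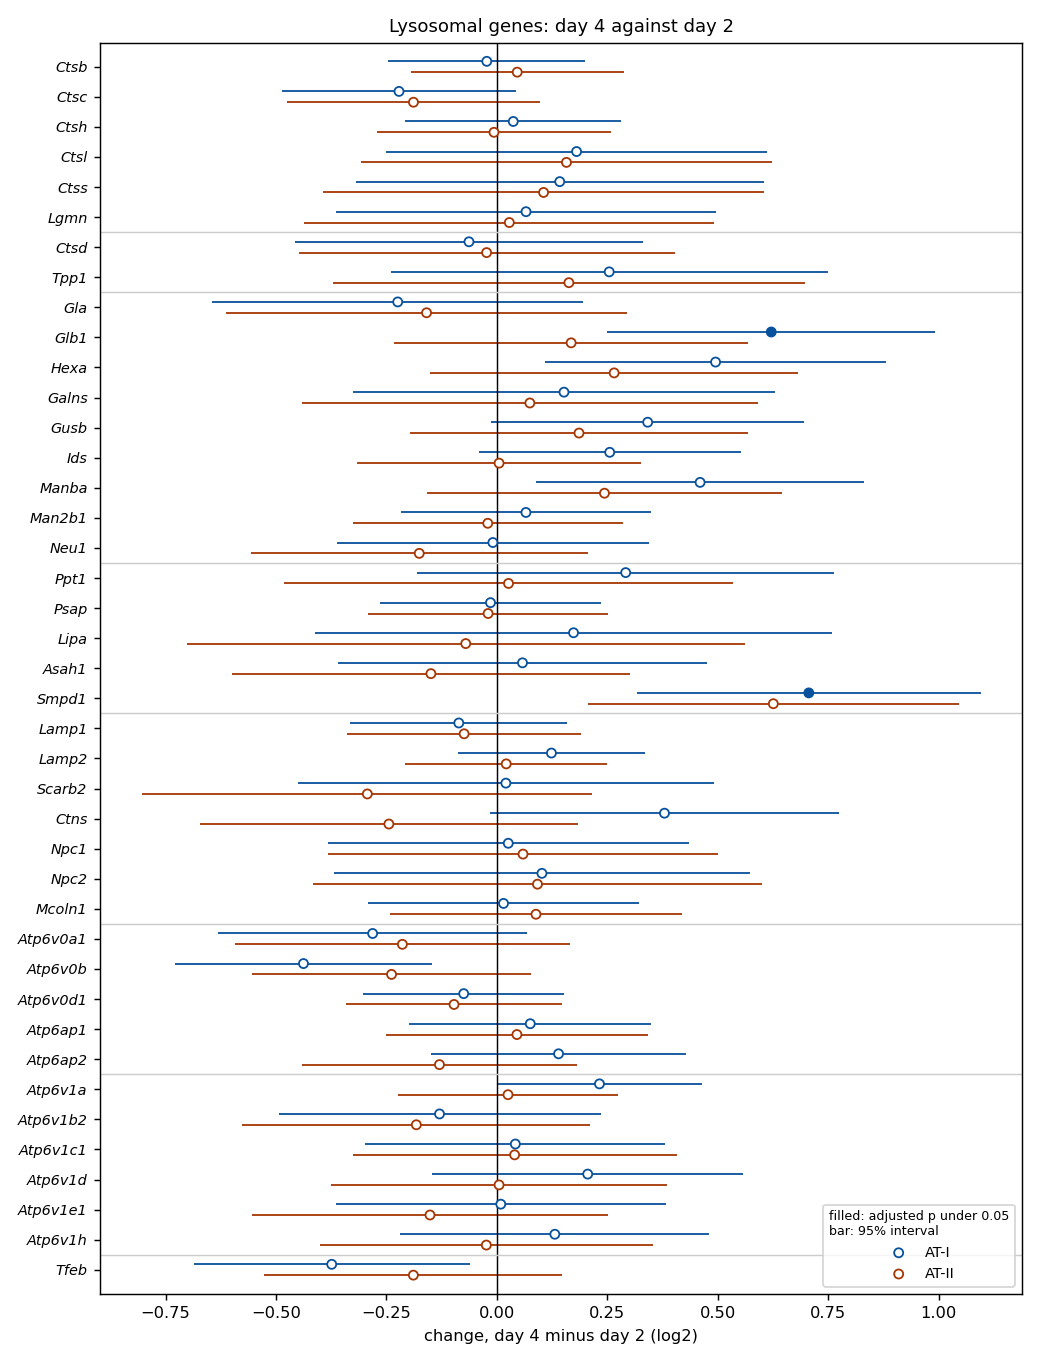
Change from day 2 to day 4 of the 41 measured lysosomal genes in log2 units, AT-I in blue and AT-II in brown, with bars for 95% intervals and filled points for adjusted p under 0.05. Genes are grouped by role from cathepsins at the top to Tfeb at the bottom. The filled points are Smpd1 (0.71) and Glb1 (0.62) on AT-I, and with each array centred on its median 28 of the 41 AT-I changes lie below 0 and the calls are Smpd1, Atp6v0b and Tfeb.

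Smpd1 encodes acid sphingomyelinase, which splits sphingomyelin into ceramide. On AT-I its log2 level was 8.00, 9.04, 8.41 and 8.80 at day 2 and 9.23, 9.51, 9.06 and 9.28 at day 4. All 4 day 4 samples were above all 4 day 2 samples, though the highest day 2 value, 9.04, lay just under the lowest at day 4, 9.06. Smpd1 rose by 0.71 ± 0.18 (SE), 1.63 fold (adjusted p = 0.0204, n = 4 and 4). On AT-II it stood at 8.61, 8.86 and 8.76 at day 2 and at 9.38, 9.28, 9.55 and 9.26 at day 4, again without overlap. The AT-II change was 0.63 ± 0.20, 1.54 fold, and missed the threshold (adjusted p = 0.122), and the time courses of the surfaces differed by 0.08 ± 0.27 (adjusted p = 0.972, 95% interval -0.49 to 0.65). The AT-I call was lost on leaving out replicate 1 (0.52, adjusted p = 0.0547) or 3 (0.66, adjusted p = 0.0534) of AT-I day 2, or replicate 2 (0.63, adjusted p = 0.0642) or 4 (0.70, adjusted p = 0.0551) of AT-I day 4. With the array's interquartile range as a covariate Smpd1 had 0.45 (adjusted p = 0.136) on AT-I and passed on AT-II at 0.60 (adjusted p = 0.0496). In a fit of only the groups compared the AT-I call also ended (adjusted p = 0.0886).

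None of the other 4 genes of lipid breakdown passed on either surface. Changes on AT-I and AT-II were 0.29 and 0.03 for Ppt1, which removes fatty acids from proteins, 0.17 and -0.07 for Lipa, the acid lipase of cholesterol esters, 0.06 and -0.15 for Asah1, the acid ceramidase, and -0.01 and -0.02 for Psap, the precursor of the saposins. Lipa had the largest scatter of all members, with a pooled SD within groups of 0.44, and its 95% interval on AT-I ran from -0.41 to 0.76. Psap, at a pooled SD of 0.14, had an interval of -0.27 to 0.24, so a rise of the size of that of Smpd1 lay outside it.

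Glb1 encodes the beta-galactosidase of gangliosides and keratan sulfate. On AT-I its log2 level was 8.33, 9.14, 8.60 and 9.06 at day 2 and 9.29, 9.46, 9.44 and 9.42 at day 4, without overlap and with less scatter at day 4 (SD 0.38 and 0.08). Glb1 rose by 0.62 ± 0.17 (SE), 1.54 fold (adjusted p = 0.0311). On AT-II it stood at 9.03, 9.38 and 9.56 at day 2 and at 9.41, 9.64, 9.66 and 9.26 at day 4, and these groups overlapped. The AT-II change was 0.17 ± 0.19 (adjusted p = 0.797), and the time courses differed by 0.45 ± 0.26 (adjusted p = 0.924, 95% interval -0.09 to 1.00), so a difference between the surfaces was not shown. For Glb1 the AT-I call was lost on leaving out replicate 1 (0.47, adjusted p = 0.0956) or 3 (0.56, adjusted p = 0.0788) of AT-I day 2, or replicate 1 (0.66, adjusted p = 0.0519), 2 (0.60, adjusted p = 0.072) or 4 (0.61, adjusted p = 0.0773) of AT-I day 4. It also ended with each array centred on its median (0.46, adjusted p = 0.0759), with quantile normalization repeated (0.51, adjusted p = 0.0613) with array weights (0.47, adjusted p = 0.0717), in a fit of only the groups compared (adjusted p = 0.0804) and with array spread as a covariate (0.52, adjusted p = 0.129).

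The other 8 measured glycosidases and sulfatases did not pass. Hexa, the alpha subunit of beta-hexosaminidase, had 0.49 ± 0.18 on AT-I (adjusted p = 0.0901) and 0.27 ± 0.20 on AT-II (adjusted p = 0.652). Its levels on AT-II were 9.44, 9.64 and 9.65 at day 2 and 9.56, 10.18, 9.84 and 9.79 at day 4, with overlap. Manba, the beta-mannosidase, had 0.46 ± 0.17 (adjusted p = 0.101) on AT-I and 0.24 ± 0.19 on AT-II, and Gusb, the beta-glucuronidase, 0.34 ± 0.17 and 0.19 ± 0.18. Ids and Galns, sulfatases of glycosaminoglycans, had 0.26 and 0.15 on AT-I and 0.005 and 0.07 on AT-II. The alpha-mannosidase gene Man2b1 had 0.07 and -0.02, the sialidase gene Neu1 -0.01 and -0.18, and the alpha-galactosidase gene Gla -0.22 and -0.16. The median over the 9 measured genes of this role was 0.26 on AT-I, the highest of the member groups with more than 1 gene, and 0.07 on AT-II.

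**Figure D2:**
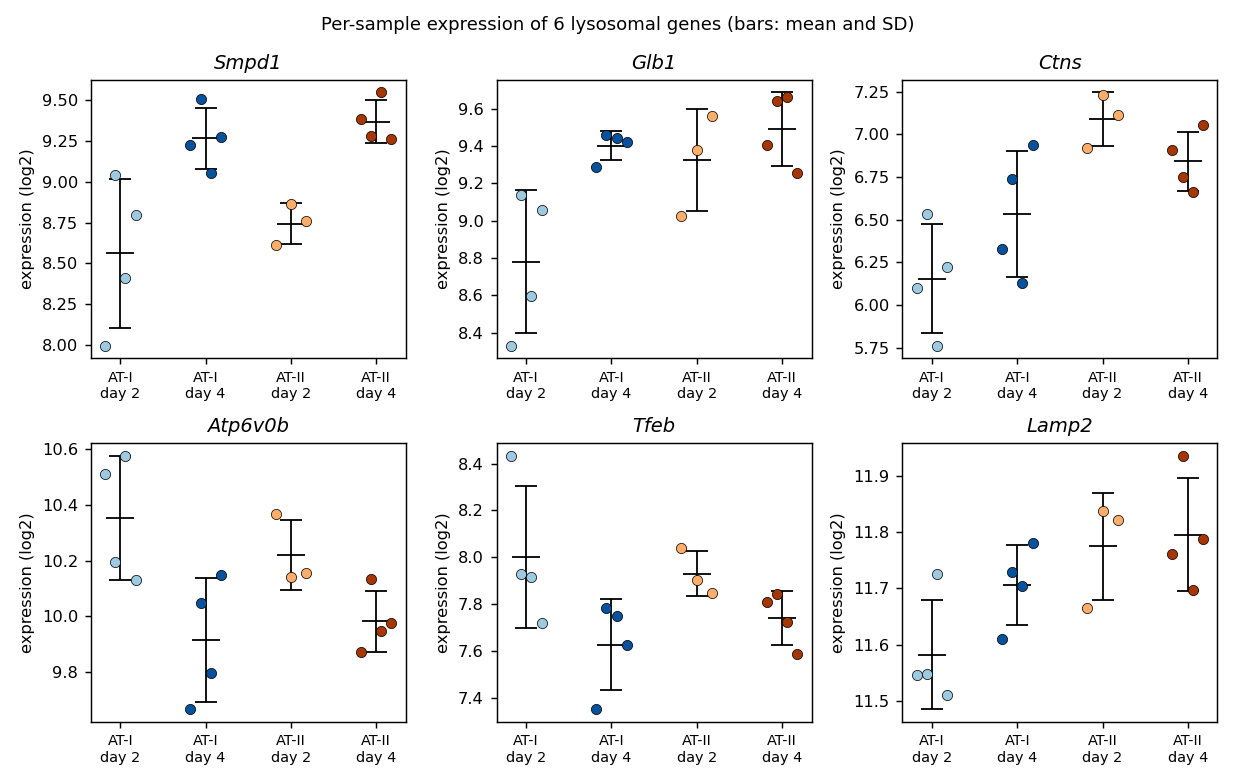
Log2 expression of Smpd1, Glb1, Ctns, Atp6v0b, Tfeb and Lamp2 in each of the 15 samples, as points by group, with bars for the mean and SD (n = 4, and n = 3 for AT-II day 2). The day 2 and day 4 points of Smpd1 do not overlap on either surface. The AT-I day 2 points of Ctns (5.76 to 6.53) all lie below those of AT-II day 2 (6.92 to 7.23), and Ctns has the lowest signal of the members.

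No cathepsin among the measured members passed in either time course. The cysteine cathepsins B, C, H, L and S and the asparaginyl protease legumain averaged 11.6 ± 0.22 (SD, n = 4) at day 2 and 11.6 ± 0.12 at day 4 on AT-I, and 11.7 ± 0.27 (n = 3) and 11.7 ± 0.16 (n = 4) on AT-II. Ctsb was the steadiest of them, with a pooled SD of 0.11. It stood at 12.98, 12.91, 13.00 and 12.97 at day 2 and at 12.85, 13.14, 12.94 and 12.84 at day 4 on AT-I. Its change was -0.02 ± 0.10 on AT-I, with a 95% interval of -0.25 to 0.20, and 0.05 ± 0.11 on AT-II. Ctsc, the dipeptidyl peptidase that activates granule serine proteases, had -0.22 ± 0.12 on AT-I (adjusted p = 0.254) and -0.19 ± 0.13 on AT-II (adjusted p = 0.635). On AT-II Ctsc was at 11.36, 11.66 and 11.68 at day 2 and at 11.18, 11.48, 11.46 and 11.38 at day 4, with overlap. Ctsh, Ctsl, Ctss and Lgmn ranged from 0.04 to 0.18 on AT-I and from -0.01 to 0.16 on AT-II. The aspartic protease gene Ctsd had -0.06 ± 0.19 and -0.02 ± 0.20, and Tpp1, the tripeptidyl peptidase, 0.25 ± 0.23 and 0.16 ± 0.25.

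The 7 genes of membrane proteins and sterol transfer did not pass over time either. Lamp1 and Lamp2 encode the main glycoproteins of the lysosomal membrane. Lamp2 had the smallest scatter of all 41 members (pooled SD 0.09) and changed by 0.12 ± 0.10 on AT-I and 0.02 ± 0.11 on AT-II, with intervals of -0.09 to 0.34 and -0.21 to 0.25. Lamp1 had -0.09 and -0.07. Npc1 and Npc2, which hand cholesterol out of the lysosome, had 0.03 and 0.10 on AT-I and 0.06 and 0.09 on AT-II. Mcoln1, the calcium channel mucolipin, had 0.01 and 0.09, and Scarb2, the receptor that carries glucocerebrosidase to the lysosome, 0.02 and -0.29. Ctns, the cystine exporter, had 0.38 ± 0.19 on AT-I (adjusted p = 0.196) and -0.24 ± 0.20 on AT-II (adjusted p = 0.693).

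Among the 11 measured V-ATPase members, 0 passed on either surface, against 11.5% of all genes on AT-I and 3.33% on AT-II. The V0 and accessory genes had a median of -0.08 on AT-I and -0.13 on AT-II, and the V1 genes 0.09 and -0.01. Atp6v0b, a proteolipid of the membrane ring, came closest. On AT-I it stood at 10.51, 10.20, 10.58 and 10.13 at day 2 and at 9.67, 10.05, 9.80 and 10.15 at day 4. Only AT-I day 4 replicate 4 reached into the day 2 range. The change was -0.44 ± 0.14 (adjusted p = 0.0507, 95% interval -0.73 to -0.15). Centring each array on its median made it pass (-0.60, adjusted p = 0.0169), as did repeated quantile normalization (-0.45, adjusted p = 0.0378), and it passed under 8 of 26 alternatives in all. On AT-II Atp6v0b was at 10.37, 10.14 and 10.16 at day 2 and at 9.87, 10.13, 9.95 and 9.98 at day 4. These groups did not overlap, but the lowest day 2 value, 10.14, lay just above the highest at day 4, 10.13. The AT-II change was -0.24 ± 0.15 (adjusted p = 0.564). The time courses of Atp6v0b differed by -0.20 ± 0.20 (adjusted p = 0.927).

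The other pump genes moved less. Atp6v0a1, the large membrane subunit, had -0.28 ± 0.16 on AT-I and -0.21 ± 0.18 on AT-II, and Atp6v0d1, the stalk subunit, -0.08 and -0.10. The accessory genes Atp6ap1 and Atp6ap2 had 0.08 and 0.14 on AT-I and 0.05 and -0.13 on AT-II. In the V1 sector, Atp6v1a, the catalytic subunit, had 0.23 ± 0.11 on AT-I (adjusted p = 0.178) and 0.03 ± 0.12 on AT-II, and Atp6v1b2, its partner in the head, -0.13 and -0.18. Atp6v1c1, Atp6v1d, Atp6v1e1 and Atp6v1h, which form the stalks and the regulatory part, ranged from 0.01 to 0.21 on AT-I and from -0.15 to 0.04 on AT-II.

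Tfeb had a lower mean at day 4 on both surfaces, without passing. On AT-I it was at 8.43, 7.93, 7.92 and 7.72 at day 2 and at 7.35, 7.78, 7.75 and 7.62 at day 4. The highest value, 8.43, belonged to AT-I day 2 replicate 1, and the groups overlapped. The change was -0.37 ± 0.15 (adjusted p = 0.112) and was -0.23 (adjusted p = 0.305) without that sample. With each array centred on its median it passed at -0.53 (adjusted p = 0.0409), and with quantile normalization repeated at -0.55 (adjusted p = 0.0427). On AT-II Tfeb was at 8.04, 7.90 and 7.85 at day 2 and at 7.81, 7.84, 7.72 and 7.59 at day 4. The AT-II groups did not overlap, but the lowest day 2 value, 7.85, lay just above the highest at day 4, 7.84. The AT-II change of Tfeb was -0.19 ± 0.16 (adjusted p = 0.701). The 5 measured genes with the TFEB element in the windows shown had AT-I changes of 0.62 for Glb1, 0.01 for Mcoln1, -0.06 for Ctsd, -0.08 for Atp6v0d1 and -0.09 for Lamp1. Only Glb1 of these passed, and Smpd1, without a match in its promoter window, also passed. TFEB activity was not measured, and whether it had a part in any of these changes was not tested.

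The comparison of the surfaces asked whether nanoscale features altered gene expression of the attached cells. At day 2, 0 of 41 members and 0 of 17245 genes passed (0.0%), while 27.3% of all genes had an unadjusted p under 0.05. This count depended on how samples were weighed: over all genes 1041 were higher and 1152 lower on AT-I with all 16 arrays counted separately, 1713 and 2000 with array weights, and 441 and 270 without AT-I day 2 replicate 2. The members leaned to lower values on AT-I, with 39 of 41 below 0 and a median of -0.18 (log2), against 57.8% of all genes below 0, 42.2% above and a median of -0.09. This lean was shared by genes of higher signal. Among the 10459 genes with a mean of at least 6, which included all 41 members, 85.5% were below 0 and the median was -0.24. Centring each array left 29 of 41 members below 0 with a median of -0.04, repeated quantile normalization 32 with -0.08, and array spread as a covariate 33 with -0.08. Without AT-I day 2 replicate 1, 36 were below 0 and the median was -0.13, and without AT-II day 2 replicate 1 it was -0.29. The macrophage markers leaned the same way, with 11 of 13 below 0 and a median of -0.24. So did osteoblast (10 of 11), stromal fibroblast (8 of 8), endothelial (4 of 4), T cell (5 of 6) and erythroid markers (5 of 7). Osteoclast markers (5 of 8 below 0) had a median of -0.05 against -0.09 over all genes. Fewer were below 0 among neutrophil (5 of 13), B cell (1 of 3) and skeletal muscle markers (1 of 5). The part of any of these cells in the result was not tested.

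Ctns had the largest member difference at day 2. It stood at 6.10, 6.53, 5.76 and 6.22 on AT-I and at 6.92, 7.23 and 7.11 on AT-II. The groups did not overlap, and the gap between the highest AT-I and the lowest AT-II value was larger than the SD of either group (0.32 and 0.16). The difference was -0.93 ± 0.20, 0.52 fold (adjusted p = 0.128, 95% interval -1.36 to -0.51). It was -0.37 (adjusted p = 0.996) with array spread as a covariate and -0.97 with all 16 arrays counted separately (adjusted p = 0.04), a setting in which 6.68% of all genes were lower on AT-I. Without AT-I day 2 replicate 2 Ctns passed at -1.06 (adjusted p = 0.0487). Glb1 had -0.54 ± 0.19 (adjusted p = 0.132), with AT-I day 2 samples at 8.33 to 9.14 overlapping AT-II day 2 samples at 9.03 to 9.56. The only members above 0 were Atp6v0b at 0.13 ± 0.15 (adjusted p = 0.535) and Tfeb at 0.07 ± 0.16 (adjusted p = 0.765), and Tfeb turned to -0.07 without AT-I day 2 replicate 1.

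At day 4 the surfaces lay closer together for most members. Again 0 of 41 members and 0.0% of all genes passed, and 3.98% of all genes had an unadjusted p under 0.05. Values below 0 were found for 39 of 41 members, with a median of -0.11 against -0.03 over all genes, of which 58.2% were below 0 and 41.8% above. Among genes with a mean of at least 6, 76.6% were below 0 and the median was -0.09. With centring 33 members were below 0, with repeated quantile normalization 37, and with array spread as a covariate 31. Without AT-II day 4 replicate 2 the median was -0.043 against -0.044 over all genes, with 30 below 0. Leaving out replicate 1, 2 or 4 of AT-I day 4 gave -0.05, -0.17 and -0.165, and leaving out replicate 1 of AT-II day 4 gave -0.18. Npc1 had the smallest p, at 8.23, 8.79, 8.24 and 8.76 on AT-I and at 8.57, 9.24, 8.86 and 8.70 on AT-II, with overlap. Its difference was -0.34 ± 0.19 (adjusted p = 0.913).

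Ctns at day 4 was at 6.33, 6.74, 6.13 and 6.94 on AT-I and at 6.91, 6.75, 6.66 and 7.05 on AT-II, and the difference was -0.31 ± 0.19 (adjusted p = 0.913). Atp6v1d, at 9.80 to 10.33 on AT-I and 9.86 to 10.04 on AT-II, had 0.05 ± 0.17, and Atp6ap2, at 10.37 to 10.82 and 10.40 to 10.65, had 0.02 ± 0.14. Both turned negative without AT-I day 4 replicate 4 (-0.06 and -0.07). Tfeb had -0.11 ± 0.15 (adjusted p = 0.933).

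**Figure D3:**
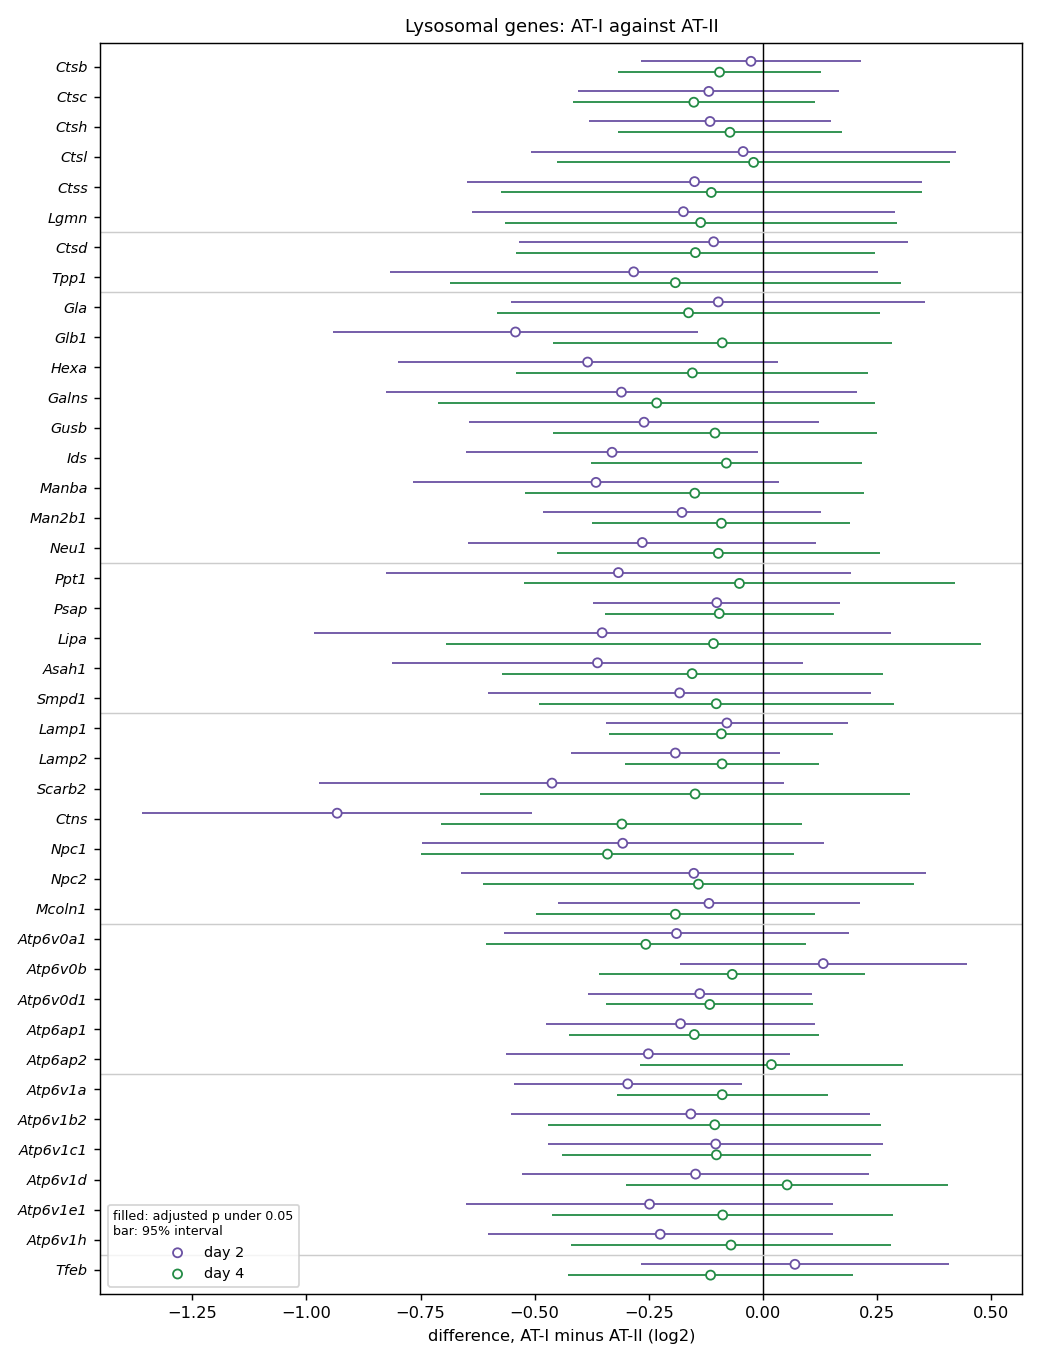
Difference between the surfaces, AT-I minus AT-II, of the 41 measured lysosomal genes in log2 units, day 2 in purple and day 4 in green, with bars for 95% intervals. Open points mark adjusted p of 0.05 or more, as for all points here. On both days 39 of 41 points lie below 0, which with each array centred on its median becomes 29 at day 2 and 33 at day 4.

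The difference between the time courses, the test of whether time acted otherwise on AT-I than on AT-II, passed for 0 members and 0.0% of all genes, with 4.10% of all genes at an unadjusted p under 0.05. The members' median was 0.08, with 31 of 41 above 0 and 10 below, against 0.03, 54.2% and 45.8% for all genes. With array spread as a covariate the members' median was -0.001 and with each array centred 0.02. Among genes with a mean of at least 6 the median was 0.13, above that of the members. Leaving out 1 sample gave 0.0007 to 0.19. Values of 0.0007 to 0.04 came without AT-I day 2 replicate 1, AT-II day 2 replicate 2 or 4, AT-I day 4 replicate 2 or 4, or AT-II day 4 replicate 1. Values of 0.12 to 0.19 came without AT-I day 2 replicate 2 or 3, AT-II day 2 replicate 1, AT-I day 4 replicate 1 or AT-II day 4 replicate 2. Ctns, the member with the lowest signal, led with 0.62 ± 0.27 (adjusted p = 0.924, 95% interval 0.04 to 1.21), on opposite signs of its changes on AT-I and AT-II. Tfeb had -0.18 ± 0.22 (adjusted p = 0.93).

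Members varied together between samples of a group. In every group replicate 1 had the lowest value for the most members, in 23 of 41 on AT-I day 2, 35 on AT-II day 2, 29 on AT-I day 4 and 29 on AT-II day 4. The matching shares of all genes lowest in those samples were 29.1%, 39.9%, 18.3% and 26.0%. The mean over the 41 members in replicate 1 was 9.80 on AT-I day 2, where the rest had 10.00 to 10.11, and 9.98 on AT-II day 2, where they had 10.30 and 10.34. It was 9.88 on AT-I day 4, with the rest at 10.00 to 10.24, and 10.03 on AT-II day 4, with the rest at 10.17 to 10.41. The macrophage marker mean was also lowest in replicate 1 of each group, at 8.54, 9.14, 9.06 and 9.21 in the same order. So was the osteoclast marker mean, at 8.07, 8.23, 8.92 and 9.02. The neutrophil marker mean was lowest in replicates 3, 4, 4 and 3 in that order. The highest samples for the macrophage markers were AT-I day 2 replicate 3, AT-II day 2 replicate 4, AT-I day 4 replicate 2 and AT-II day 4 replicate 2. Those samples were also highest for the members, except on AT-I day 4, where replicate 4 stood at 10.24 and replicate 2 at 10.21. Whether the share of macrophages, osteoclasts or other cells set the member levels was not tested. The median pooled SD within groups was 0.24 over the members and 0.23 over all genes.

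**Figure D4:**
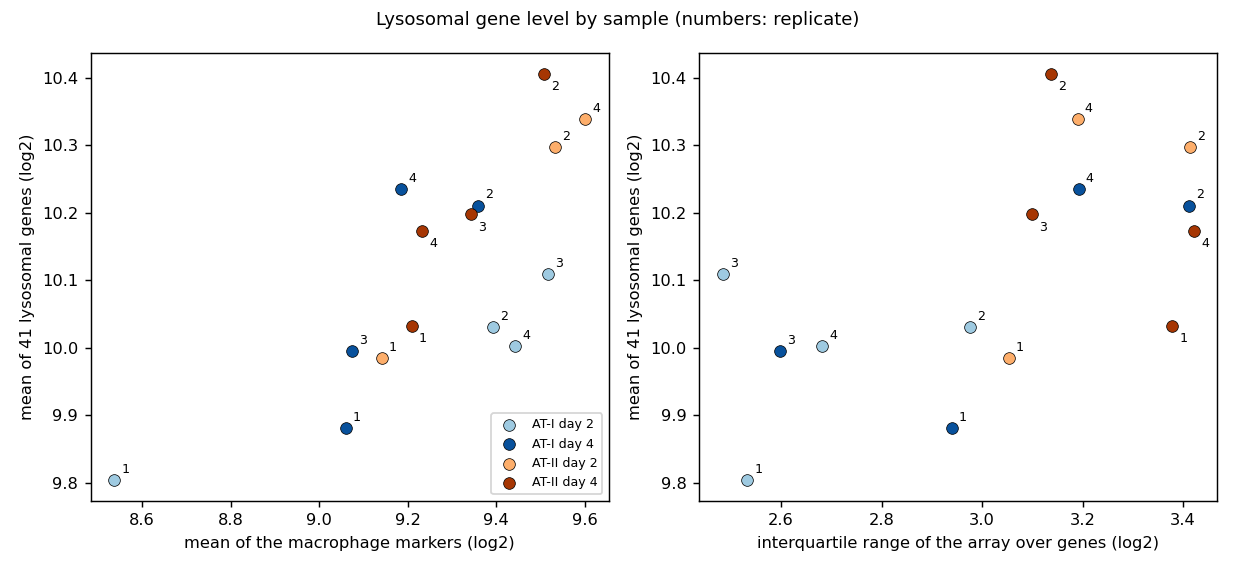
Mean log2 expression of the 41 lysosomal genes in each of the 15 samples, against the mean of 13 macrophage markers (left) and the interquartile range of the array (right), with colours for groups and numbers for replicates. Replicate 1 has the lowest member mean of each group (9.80, 9.98, 9.88 and 10.03) and also the lowest macrophage mean. The osteoclast marker mean, not plotted, is lowest there too.

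Cell type markers moved over time beside these genes. Macrophage markers had a median of -0.02 on AT-I and -0.07 on AT-II, with Cd14, the endotoxin co-receptor, falling on AT-I (-0.67 ± 0.15, adjusted p = 0.0078) and no other marker passing on either surface. Osteoclast markers (8 of 12 measured) had a median of 0.39 on AT-I, where Ctsk and Atp6v0d2 rose, and 0.47 on AT-II, where 0 passed. Of these markers, 6 were above 0 and 2 below on each surface, the lowest at -0.74 on AT-I and -0.42 on AT-II. Their mean per sample was 8.07 to 8.79 on AT-I day 2, 8.23 to 8.83 on AT-II day 2, 8.92 to 9.62 on AT-I day 4 and 9.02 to 9.29 on AT-II day 4. Stromal fibroblast markers rose in 6 of 8 on AT-I and 2 of 8 on AT-II, against 8.84% and 3.13% of all genes. Their medians were 1.52 and 1.29, with 8 of 8 above 0 on each surface. For the difference between the time courses 0 of them passed. Neutrophil markers had a median of -0.42 on AT-I and -0.36 on AT-II, against -0.05 over all genes on each, with 12 of 13 below 0 on each surface. Of the 13, 1 passed on AT-I, Csf3r, which fell, and 0 passed on AT-II. Of the erythroid (7), endothelial (4), T cell (6), B cell (3) and skeletal muscle (5) markers measured, 0 passed on either surface. Their part in the lysosomal values was not tested.

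Other genes of the lysosomal pathway, from lists that hold no member, changed more than the members did in single cases. Among 23 other hydrolases 4 rose and 0 fell on AT-I, and 2 rose and 0 fell on AT-II. Over all genes 8.84% rose and 2.66% fell on AT-I, and 3.13% and 0.203% on AT-II, which also stand beside the lists that follow. Cpq, a carboxypeptidase, rose by 1.54 ± 0.23 on AT-I (adjusted p = 0.000522) and 1.21 ± 0.25 on AT-II (adjusted p = 0.0122), and Hyal1, a hyaluronidase, by 1.18 ± 0.29 (adjusted p = 0.0159) and 1.35 ± 0.32 (adjusted p = 0.0256). Ctsk, the collagen-cleaving cathepsin K of osteoclasts, rose by 1.99 ± 0.49 on AT-I (adjusted p = 0.0151) and had 1.90 ± 0.53 on AT-II (adjusted p = 0.0645). The last of the 4, Aga at 0.54, was named after its value was seen, as were Laptm4a and Cst3 among the genes that follow.

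Among 22 other lysosomal membrane proteins 2 rose and 1 fell on AT-I and 0 passed on AT-II. The shares of all genes were 8.84% and 2.66% on AT-I and 3.33% either way on AT-II. Slc17a5, the sialic acid exporter, rose by 0.71 ± 0.14 (adjusted p = 0.00427) and Laptm4a by 0.52, while Slc11a1, the metal transporter of phagosomes, fell by 0.52 on the log2 scale (adjusted p = 0.0196). Of 13 other V-ATPase subunits, 2 rose on AT-I and 1 on AT-II, with 0 falling. Atp6v0d2, the osteoclast form of the stalk subunit, rose by 2.18 ± 0.57 on AT-I (adjusted p = 0.0218) and had 1.88 ± 0.62 on AT-II (adjusted p = 0.141), and Atp6v0e2 rose by 0.84 ± 0.15 and 0.98 ± 0.16 (adjusted p = 0.00212 and 0.00271). These stand beside -0.08 and -0.10 for the member Atp6v0d1, the widely expressed form of the same subunit.

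Of 8 cysteine protease inhibitors, 1 rose and 2 fell on AT-I and 0 rose and 2 fell on AT-II. The shares of all genes were 8.84% and 2.66% on AT-I and 3.13% and 0.203% on AT-II. Cst7, the cystatin that restrains cathepsin activity in immune cells, fell by 0.84 on AT-I (adjusted p = 0.00315) and by 0.77 on AT-II (adjusted p = 0.0221) on the log2 scale, and the stefin gene Stfa2l1 fell by 0.78 (adjusted p = 0.0231) and 0.86 (adjusted p = 0.0453). Stefins are a family of close copies, so its signal may include others. Cst3, the widely secreted cystatin C, rose by 0.66 on AT-I. In the autophagy list of 21 genes, Wipi1, which binds the forming membrane, rose by 0.95 ± 0.16 on AT-I (adjusted p = 0.00138) and 0.69 ± 0.18 on AT-II (adjusted p = 0.0413), and the kinase gene Ulk2 rose by 0.52 ± 0.16 on AT-I (adjusted p = 0.0397). Of 11 genes of mannose 6-phosphate tagging and other sorting, 0 passed on either surface. Igf2r, the larger mannose 6-phosphate receptor, had 0.55 ± 0.19 on AT-I (adjusted p = 0.0726), and the retromer gene Vps35 had -0.34 ± 0.11 on AT-II (adjusted p = 0.138). Of 15 MiT/TFE and lysosomal mTORC1 genes 0 passed, with Rragd, a small GTPase that places mTORC1 on the lysosome, at 0.47 ± 0.18 on AT-I (adjusted p = 0.106) and Lamtor2 at -0.50 ± 0.18 on AT-II (adjusted p = 0.211).

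Cpq, Slc17a5, Atp6v0e2, Cst7 and Wipi1 on AT-I and Atp6v0e2 on AT-II passed under every one of 26 alternatives. Other calls on AT-I ended when single samples were left out. Without AT-I day 4 replicate 4, Ctsk had 1.79 (adjusted p = 0.058), Slc11a1 -0.47 (0.0701), Atp6v0d2 1.79 (0.0831), Stfa2l1 -0.67 (0.0842), Aga 0.49 (0.0873), Laptm4a 0.46 (0.101), Cst3 0.57 (0.0897) and Ulk2 0.44 (0.132). Without AT-I day 2 replicate 1, Hyal1 had 0.98 (0.0545), Atp6v0d2 1.63 (0.0648), Cst3 0.47 (0.0611), Aga 0.48 (0.0779), Laptm4a 0.41 (0.0987) and Ulk2 0.43 (0.117). Further samples ended the calls of Slc11a1 (AT-I day 4 replicate 1, -0.47), Stfa2l1 (AT-I day 2 replicate 2, -0.62, and AT-I day 4 replicate 2, -0.77), Cst3 (AT-I day 4 replicate 2, 0.65), Aga (AT-I day 2 replicate 2, 0.50, and AT-I day 4 replicate 2, 0.53) and Laptm4a (AT-I day 2 replicates 2 and 4 and AT-I day 4 replicate 1, 0.50 to 0.54). Ulk2 also failed without replicate 3 or 4 of AT-I day 2, replicate 1 or 2 of AT-I day 4, replicate 2 of AT-II day 2 or replicate 1 or 3 of AT-II day 4 (0.47 to 0.54). On AT-II, Cpq had 1.03 (0.103) without AT-II day 2 replicate 1. Hyal1 failed without AT-II day 2 replicate 1 or 2 or any AT-II day 4 sample (1.13 to 1.38), and Cst7 without AT-II day 2 replicate 1 (-0.64) or 2 (-0.76) or AT-II day 4 replicate 1 (-0.69) or 3 (-0.74). Wipi1 failed without any AT-II day 2 sample or AT-II day 4 replicate 1, 3 or 4 (0.55 to 0.74), and Stfa2l1 passed in 4 of 15 such fits, those without replicate 1 or 2 of AT-I day 2, or replicate 4 of either surface at day 4, with -1.02 to -0.71 over all 15. Other settings ended calls too. In a fit of only the groups compared, those of Ctsk (adjusted p = 0.0518), Slc11a1 (0.0541), Aga (0.0547), Hyal1 (0.0622), Laptm4a (0.0937), Cst3 (0.0937) and Ulk2 (0.115) ended on AT-I, and those of Wipi1 (0.0537) and Stfa2l1 (0.0721) on AT-II. With array spread as a covariate, AT-I calls ended for Slc11a1 (-0.52, 0.0544), Hyal1 (1.04, 0.0778), Laptm4a (0.52, 0.0802), Ctsk (1.70, 0.0837), Aga (0.49), Atp6v0d2 (1.79, 0.114), Cst3 (0.54, 0.119) and Ulk2 (0.30, 0.224). Centring each array ended Cst3 (0.50), Aga (0.39), Ulk2 (0.365) and Laptm4a (0.36) on AT-I and Wipi1 (0.585) on AT-II. Repeated quantile normalization ended Aga (0.45) and Ulk2 (0.36) on AT-I and Hyal1 (1.20) on AT-II, and the mean of a gene's rows ended Aga (0.24).

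**Figure D5:**
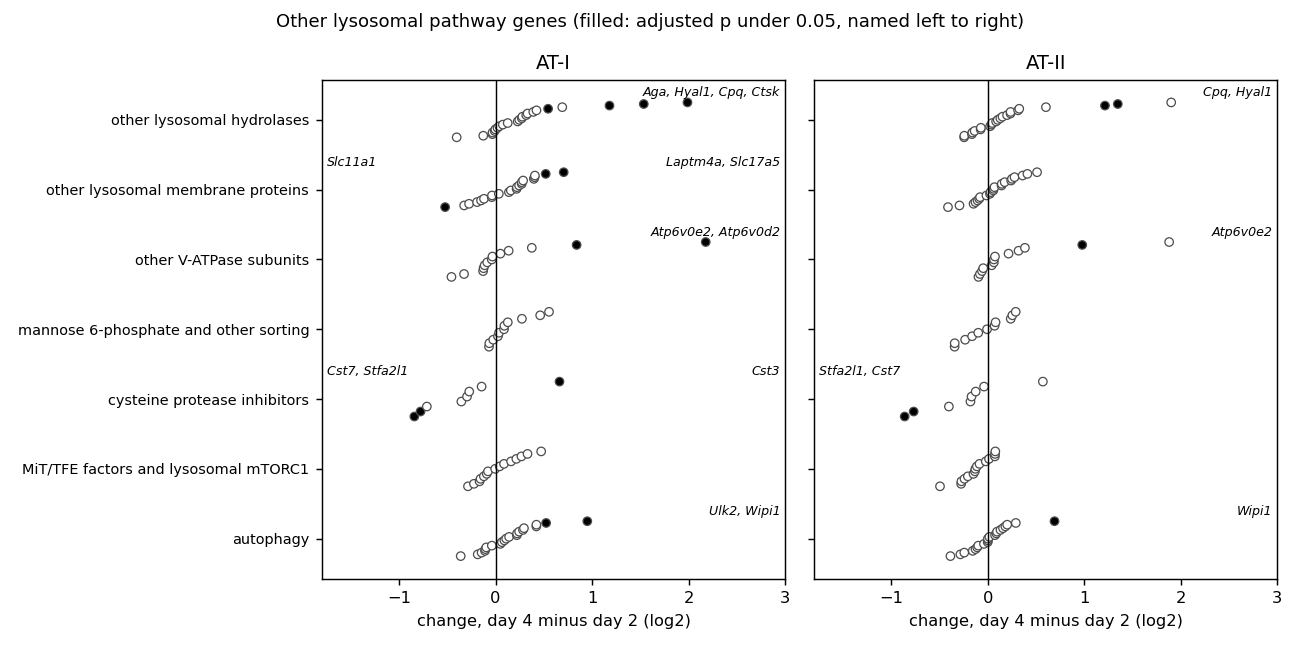
Change from day 2 to day 4 in log2 units of the measured genes of 7 other lysosomal pathway lists, AT-I on the left and AT-II on the right, 1 point per gene, filled and named where adjusted p was under 0.05. The farthest points are Atp6v0d2 (2.18) and Ctsk (1.99) on AT-I.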

How the data were processed

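The values deposited by the authors are log2 expression per array row. The submitters' processing notes name RMA and the Affymetrix Expression Console. Their versions, the build and any filter are not given in the sources here, and base 2 was taken because RMA uses it. Over the genes used, array medians ran from 6.565 to 6.916 and interquartile ranges from 2.485 to 3.426, so the deposited arrays do not share a distribution, and scaling was varied. Of 29214 rows, 18644 named 1 gene in the platform annotation, 962 several and 9608 none. The brightest row was used for the 879 genes with more than 1, giving 17245 genes. The mean of replicates 2 and 3 of AT-II day 2 stood for both, leaving 15 samples.

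Group means were fitted with limma 3.58.1 (lmFit, eBayes, two-sided) in R 4.3.3, with Benjamini-Hochberg adjustment over all genes and a threshold of 0.05. The fit had 11 residual degrees of freedom. Other steps used Python 3.11.15, pandas 2.3.3 and scipy 1.17.1. The limma step was tried on simulated data with independent genes. Members here varied together between samples, so that trial cannot show how the step performs on such genes. Sample values are given for up to 4 called members with the smallest p per comparison and direction, otherwise for 2, and for Tfeb; from each other list up to 2 genes were named by their smallest p. Values of Ctsb were added after they were seen. The members and lists were chosen with earlier results of these data known. Alternatives were 26: 15 leaving out 1 sample, and 11 of scaling, row choice, filter, spread model, samples, array weights, array spread and a replicate block. In the time comparisons that block joined equal replicate numbers of day 2 and day 4, which came from different rats, so it does not adjust for the rat. In the other comparisons it was the replicate number within a day. No slide or scan batch is given in the sources used here.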

Additional observations from a re-analysis of the deposited data

Results flagged for a closer look

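In 126 checks of 4-sample groups, 8 members had a sample far from the other 3 of its group by Dixon's criterion, which chance meets in about 1 in 20 groups. AT-I day 2 replicate 1 was low for Tpp1 (9.2575, others 10.11 to 10.17), Hexa (8.6209, others 9.35 to 9.45), Galns (7.8556, others 8.71 to 8.82) and Psap (12.5621, others 12.75 to 12.78). This was also the sample with the lowest macrophage marker mean, 8.54. AT-I day 2 samples were high for Gusb in replicate 2 (8.6830, others 8.23 to 8.28), Atp6v1d in replicate 3 (10.2855, others 9.58 to 9.62) and Mcoln1 in replicate 4 (9.0669, others 8.75 to 8.80). Atp6v0a1 was high in AT-I day 4 replicate 2 (9.5723, others 9.04 to 9.09).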

How the results depend on the processing

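The number of members called over time on AT-I was 2, and became 0 in a fit of only the groups compared, 1 with array weights, 0 with array spread as a covariate and 0 to 3 when 1 sample was left out. It was 3 (1 higher, 2 lower) with centring and with repeated quantile normalization, and 3 (2 higher, and Atp6v0b lower) with all 16 arrays counted separately, with low genes left out and with the mean-variance trend. On AT-II it was 0, and became 1 (Smpd1) with quantile normalization repeated, with only the groups compared, with array weights and with array spread as a covariate, and 0 to 1 when 1 sample was left out. Between the surfaces at day 2 it was 0, and became 3 (Atp6v1a, Ctns and Glb1, all lower on AT-I) with all 16 arrays counted separately and with array weights, and 0 to 1 when 1 sample was left out. It stayed 0 at day 4 and for the difference between the time courses under the alternatives run; a fit of only the groups compared was not run for the latter, which uses all groups. Over all genes on AT-I, 959 rose and 101 fell in a fit of only the groups compared and 947 and 367 with array spread as a covariate, against 1525 and 458; without AT-I day 4 replicate 4 they were 991 and 167. On AT-II 919 rose and 309 fell with array weights against 540 and 35, and 219 and 4, 289 and 5, 308 and 4, and 347 and 7 without AT-II day 2 replicate 1, AT-II day 2 replicate 2, AT-II day 4 replicate 1 and AT-II day 4 replicate 3. Replicate numbers were not taken as pairs. Same-numbered samples correlated above 0.1 in 3 of 4 pairs on each day, but at -0.26 in replicate 3 at day 2 and -0.34 in replicate 2 at day 4. AT-II day 2 replicate 3 was averaged with replicate 2. AT-I day 2 replicate 2 correlated at 0.505 with AT-II day 2 replicate 2 and at 0.533 with replicate 3. The value of replicate 3 at day 2 therefore cannot decide on pairing. Not every sample correlated best with its own number. With the replicate block, 4 members passed on AT-I (Glb1, Hexa, Manba and Smpd1) whichever number the averaged sample took. More of all genes passed as well, with 1946 higher and 921 lower with it as number 2, and 1671 and 570 with it as number 3. This block joined equal replicate numbers of day 2 and day 4, which came from different rats. Between the surfaces at day 2, 2 passed (Ctns and Glb1), with 819 genes higher and 435 lower, with it as number 3, and 0 genes with it as number 2. On AT-II the block ended the calls of Stfa2l1 and, as number 3, Wipi1. The difference between surfaces turned for Tfeb at day 2 to -0.0190 with array weights and -0.0013 with array spread as a covariate. When 1 sample was left out it ran from -0.0745 (without AT-I day 2 replicate 1) to 0.1631 for Tfeb. At day 4 it ran from -0.0629 (without AT-I day 4 replicate 4) to 0.1148 for Atp6v1d, and from -0.0738 (without the same sample) to 0.0755 for Atp6ap2, which was -0.0232 without AT-II day 4 replicate 1. The cause was not tested. Precision is limited by the few arrays per group.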

Other observations

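Rows shared by a member and another gene were left out of every comparison. A row naming Ctsa and Pltp stood at 9.75 ± 1.23 (SD, n = 4) on AT-I day 2, 10.29 ± 0.78 (n = 3) on AT-II day 2, 10.80 ± 0.12 (n = 4) on AT-I day 4 and 11.03 ± 0.17 (n = 4) on AT-II day 4. The other row naming the same pair stood at 11.31 ± 0.41, 11.49 ± 0.40, 11.46 ± 0.15 and 11.63 ± 0.15 in the same order. A row naming Idua and Slc26a1 stood at 8.24 ± 0.44, 8.60 ± 0.37, 8.85 ± 0.18 and 9.15 ± 0.10, and another row naming that pair at 5.01 ± 0.07, 5.12 ± 0.21, 4.95 ± 0.36 and 5.02 ± 0.20. Atp6v1h, which has a row of its own, also shared a row with Rgs20, at 5.23 ± 0.32, 5.05 ± 0.10, 5.11 ± 0.07 and 4.93 ± 0.10. Which of the paired genes each row measured was not tested.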
